A study of Mus musculus with 6 samples.

Results

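Tumor pericytes were described in single-cell RNA profiles of mammary tumors from MMTV-PyMT mice, a transgenic strain in which a mammary tumor virus promoter drives the polyoma middle T oncogene in mammary epithelium. Every library carried this transgene and came from mice of 10 weeks. Each of the 3 libraries was 1 processing condition. In the control, minced tumor was digested with type I collagenase for 60 min. In the platform conditions, the minced tissue was digested in a microfluidic device and passed once through a joined dissociation and filter device, and the cells that came out at 15 min and at 60 min were kept as separate libraries. Red cells were lysed, SytoxBlue-negative cells were sorted, and droplet libraries (10x Chromium) were made. The number of tumors or mice behind each library was not given in the labels.

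Pericytes were the cells with at least 3 unique molecular identifiers (UMIs, 1 for each captured RNA molecule) of Rgs5, at least 1 of Pdgfrb, none of Pecam1 or Ptprc and at most 1 of Epcam. They were chosen among 17562 cells with 200 to 4000 detected genes and at most 25% mitochondrial UMIs, out of 24527 deposited tumor cells. The rule found 124 pericytes, of which 18 came from the control, 31 from platform 15 min and 75 from platform 60 min. Because the rule read Rgs5 and Pdgfrb, their levels are a description. A pericyte held 3 to 197 Rgs5 UMIs (median 48.5) and 1 to 29 Pdgfrb UMIs (median 6). At the edge of the rule, 2 cells had 3 Rgs5 UMIs and 1 had 4, while 2 cells that met the other limits had 2 Rgs5 UMIs and 5 had 1. The 2 cells just outside carried Higd1b at 830 CPM (UMIs of a gene per 1000000 UMIs of the summed cells) and no Dcn UMI, and the 5 cells with 1 Rgs5 UMI carried Dcn at 4592 CPM. Just inside, the 2 cells with 3 Rgs5 UMIs carried Higd1b at 233 CPM, Dcn at 117 and Col1a1 at 4785. Col1a1 was at 623 CPM in the 2 cells just outside. The cell with 4 Rgs5 UMIs carried Higd1b at 513 CPM and no Dcn UMI.

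Pericytes are mural cells that lie along capillaries and venules inside the basement membrane they share with the endothelium. Endothelial cells release PDGF-B, which recruits pericytes through the receptor PDGFRB, and pericytes in turn steady the vessel, set its tone through contractile proteins and add to its matrix. In tumors their cover of the vessel wall is often loose and uneven. They grade into vascular smooth muscle cells, which carry more contractile protein.

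The 3 libraries were of like depth, with 8152 to 8198 deposited cells and 90414805 to 101222030 UMIs each. Between pairs of libraries, 16 to 21 cell barcodes were shared among the deposited cells and 0 among the pericytes. Pericytes had a median of 6585.5 UMIs in the control, 6122 in platform 15 min and 6910 in platform 60 min, against 12320 in fibroblasts and 8207 in endothelial cells. Summed over cells, pericytes gave 129117, 205605 and 549175 UMIs in these libraries, so that 3 UMIs, the floor below which a level is read as not detectable, correspond to 23.2, 14.6 and 5.46 CPM. The control sum is the least precise. With 1 library per condition no test between conditions was possible, and the 95% intervals given below cover counting error only.

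The label of the cells was checked on genes the rule did not read. Higd1b, a mitochondrial protein gene used as a pericyte marker, was at 1293 CPM in the control, 1678 in platform 15 min and 1683 in platform 60 min. It was at 0.308 CPM in fibroblasts and 6.62 in endothelial cells. Levels of the ATP-sensitive potassium channel gene Kcnj8 were 511, 890.1 and 832 CPM in the same order, and those of Notch3, the mural Notch receptor, were 496, 598 and 473 CPM. Des, which codes for the intermediate filament desmin, was at 883, 472 and 610.0 CPM, with 0 UMIs in fibroblasts. Each of these genes was far above both other stromal cell types in every library, and the lowest pericyte library never met the highest library of another type. Cdh5 and Cldn5, of endothelial junctions, had 0 and 1 UMIs in pericytes, and Lum, a fibroblast proteoglycan, 2. Separately, clustering of all 17562 cells gave 19 clusters, and the 1 with the highest mean Rgs5 held 145 cells, including all 124 pericytes. Since Rgs5 chose both the cluster and the cells, this overlap is a description and no check of the label.

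**Figure D1:**
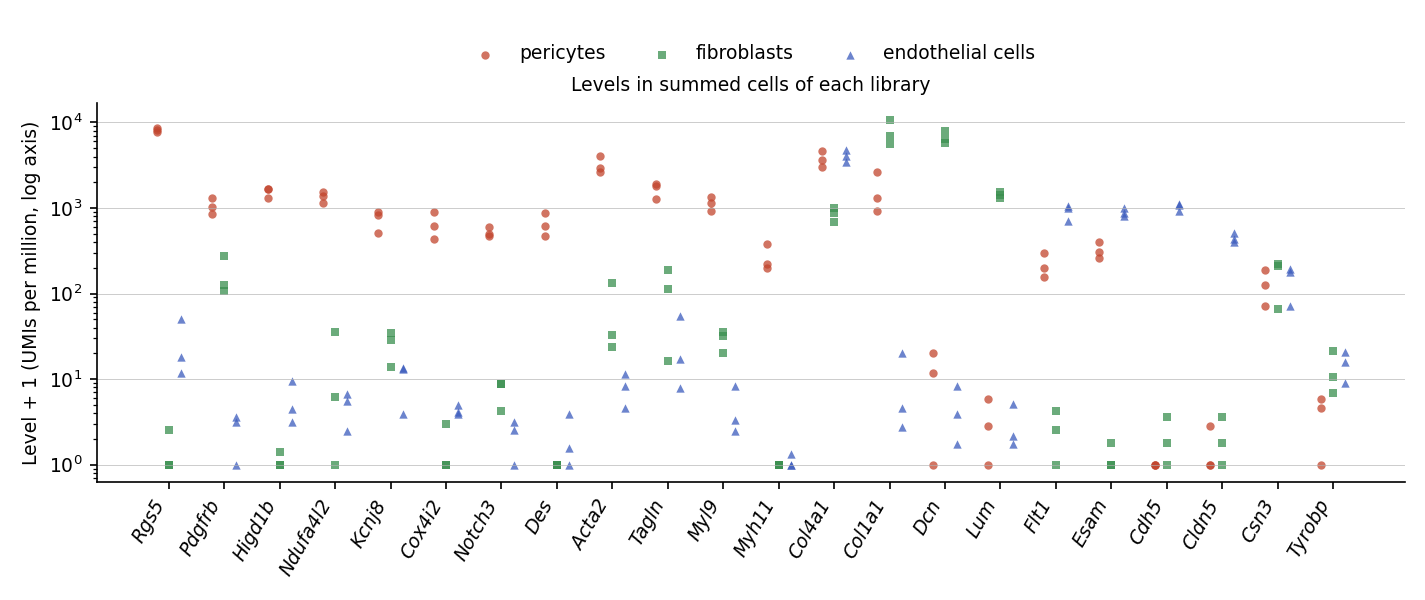
Levels of marker genes in summed cells of each library, as CPM plus 1 on a log axis, with 1 point per library for pericytes (circles), fibroblasts (squares) and endothelial cells (triangles). Pericyte points of Higd1b, Kcnj8, Notch3, Des and Acta2 lie above all points of the other cell types, those of Col4a1 overlap with endothelial cells and those of Dcn and Lum lie near the bottom; Rgs5, Pdgfrb, Dcn and Cdh5 were read by the rules that chose the cells.

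Markers of other cell types were low but not all absent. The summed level of 10 endothelial markers was 596 to 900 CPM over the pericyte libraries, which is 9.02% of its level in endothelial cells, and none of the 10 was at 0. Most of this sum came from Flt1, Esam and Eng. The 13 fibroblast markers summed to 4399, 9017 and 5579 CPM, or 14.04% of their level in fibroblasts, mostly as collagens, with Dpep1 and Pi16 at 0. The 13 leukocyte markers stood at 0.220% of their level in leukocytes, and the 10 luminal epithelial markers at 0.731% of theirs in epithelial cells. Fibroblasts (0.261% and 0.711%) and endothelial cells (0.478% and 0.812%) carried similar shares of both. Of 7 basal epithelial markers 5 were at 0, and 5 red cell genes summed to 5.66 CPM. The list of Schwann cell and adipocyte markers summed to 190.1 CPM, nearly all of it Lpl (186 CPM), and 6 of its 8 genes were at 0. No doublet caller was run.

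Pericytes took a larger share of the cells released by the platform at 60 min than of the control. Cells eluted from the platform at 15 min were not in its 60 min library, whereas the control held cells of its whole digestion. They made up 0.314% of kept cells in the control (95% exact binomial interval 0.186 to 0.495%), 0.534% in platform 15 min (0.363 to 0.758%) and 1.25% in platform 60 min (0.981 to 1.56%). The interval of platform 60 min did not meet the other intervals, whereas those of the control and platform 15 min overlapped. The share of platform 60 min was 3.97 times that of the control (2.37 to 6.63) and 2.33 times that of platform 15 min (1.54 to 3.54). Platform 15 min stood at 1.70 times the control, with an interval of 0.954 to 3.04 that holds equality. Adding the platform fractions with weights of 1 for 15 min and 1.5 for 60 min, as the study weighted them, gave 7.65 times the control (4.64 to 12.6). These weights alone raise an unchanged share to 2.5 times. On the same scale fibroblasts stood at 13.0, endothelial cells at 5.66, leukocytes at 2.67 and epithelial cells at 2.34.

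The other stromal cells moved in the same direction by different amounts. Fibroblasts, chosen by Dcn and Pdgfra, numbered 26 in the control and 41 and 209 in the platform libraries, a share ratio of 7.65 for platform 60 min to control (5.10 to 11.5). Endothelial cells, chosen by Pecam1 and Cdh5, numbered 200, 217 and 642, a ratio of 3.06 (2.62 to 3.57). For every 100 endothelial cells there were 9 pericytes in the control (5.23 to 14.6), 14.3 in platform 15 min (9.47 to 20.9) and 11.7 in platform 60 min (9.07 to 14.9). These 3 intervals overlap. For every 100 fibroblasts there were 69.2 pericytes (35.8 to 131), 75.6 (45.8 to 124) and 35.9 (27.2 to 46.9). The limit of 4000 genes removed 18 cells that otherwise met the rule, 0 from the control, 3 from platform 15 min and 15 from platform 60 min.

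**Figure D2:**
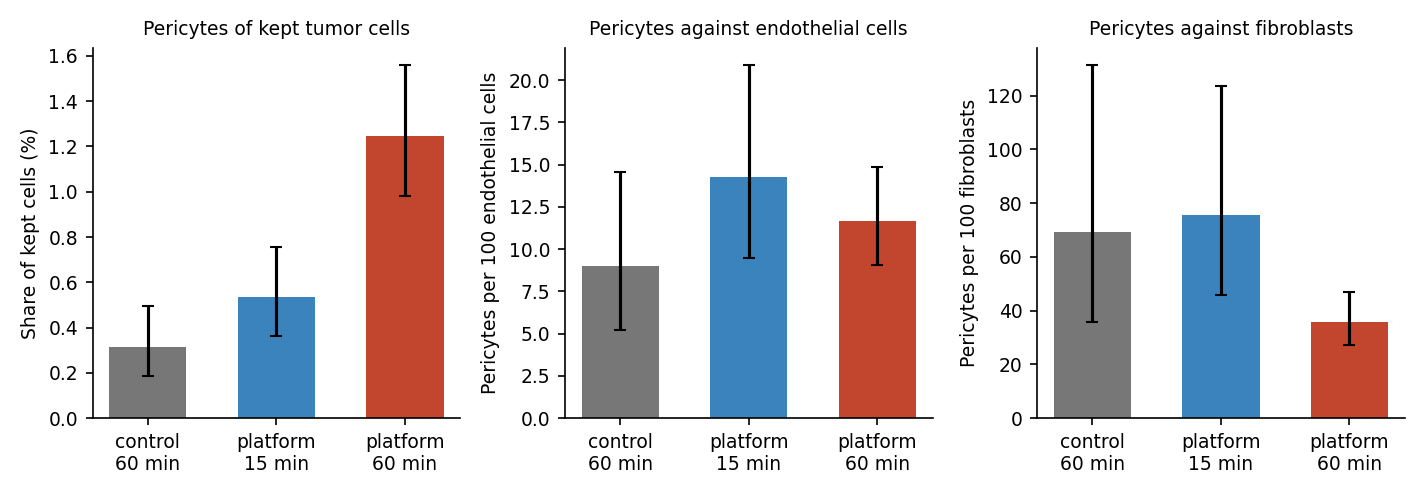
Pericytes as a percentage of kept tumor cells, per 100 endothelial cells and per 100 fibroblasts in each library (bars), with 95% intervals that cover counting error only. The share was 0.314% in the control and 1.25% in platform 60 min, while the numbers per 100 endothelial cells, 9, 14.3 and 11.7, have overlapping intervals.

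Against the other stromal cells, gene levels were compared on UMI sums per library and cell type with edgeR's quasi-likelihood test, with library as a term. Adjusted p is the Benjamini-Hochberg value over all 8090 genes tested, and a gene was called at an adjusted p below 0.05 and a fold of at least 2. In simulated data few 2-fold changes were called, so a gene not called may still differ by that much. The libraries served as replicates although each is another condition, so that p measures the spread between these 3 libraries and not between animals. Both cell sets were chosen by marker genes, and genes that go with those markers differ through the choice. The genes read by the rules were left out of the counts. Of all genes tested, 8.18% were called higher and 13.4% lower in pericytes than in fibroblasts, and 12.6% higher and 13.7% lower than in endothelial cells. Higher than both were 338 genes (4.18%), and lower than both 314 (3.88%). The pericyte marker list had 15 of 19 genes called higher than fibroblasts and 18 of 19 higher than endothelial cells, which describes the label. Its exceptions were Anpep, an aminopeptidase gene lower than in fibroblasts (37.3 against 85.3 CPM), Cd248, Tbx18 and Ebf1, which were not called against fibroblasts, and Mcam, an adhesion gene at 396 CPM in pericytes and 373 in endothelial cells.

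Most smooth muscle contractile genes were higher than in both cell types. They build and regulate the actin and myosin filaments of mural cells. Of 18 genes 16 could be tested. Against fibroblasts 13 were higher and 0 lower (median log2 fold change 4.82, against -0.06 over all genes), and against endothelial cells 14 were higher and 1 lower (median 5.78, against -0.07). Acta2, smooth muscle alpha actin, was at 2935 CPM in the control, 2612 in platform 15 min and 4021 in platform 60 min. Over all libraries it was at 110 CPM in fibroblasts and 7.30 in endothelial cells. The log2 fold change was 5.45 ± 0.35 (SE) against fibroblasts and 8.88 ± 0.41 against endothelial cells, with adjusted p of 5.30e-09 and 7.97e-11.

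Tagln, the actin-binding protein transgelin, was at 1828, 1284 and 1908 CPM in control, platform 15 min and platform 60 min. The regulatory myosin light chain gene Myl9 followed with 1146, 909.5 and 1329 CPM. Tpm2, a tropomyosin gene, had 1255, 997 and 1266 CPM. All 3 were lowest in platform 15 min, yet every pericyte library lay above every fibroblast and endothelial library. Myh11, the smooth muscle myosin heavy chain, was at 379.5, 219 and 200.3 CPM and had 0 UMIs in fibroblasts, so that it was at least 249.9-fold higher there, and 2 UMIs in endothelial cells, a ratio of 1028 (281 to 8544). Lmod1, leiomodin, was at 86.0 CPM against 0.308 and 0.561, and Ppp1r14a, an inhibitor of myosin phosphatase, at 389 against 0.924 and 10.4 CPM. Cnn1 (5 UMIs) and Pln (1 UMI), calponin and phospholamban of mature smooth muscle, were too low to test. The exception to the direction was Smtn, smoothelin, at 21.5 CPM against 20.01 in fibroblasts and 52.0 in endothelial cells, the 1 gene of the list called lower. Myl6 was not called in either comparison.

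Since many of these genes were called together, their promoter windows were searched on both strands for the CArG box, the DNA element bound by serum response factor, taken as CC, a core of 6 bases that are each A or T, and GG. Windows of 250 bases before to 50 bases after each gene start, from RefSeq on GRCm38.p6, were used. The exact box was found in 2 of 15 contractile genes with an entry (Myl9 and Myl6) and in 0 of 15 pericyte marker genes with an entry, against 1.81% of 27025 genes overall. A box with 1 core base that is C or G was found in 3 contractile genes and 1 pericyte marker gene, against 9.69% of all genes. The windows of Acta2 (chr19:34255324-34255623, minus strand) and Myl9 (chr2:156775214-156775513, plus strand) are shown because both genes were called higher than in both cell types. Capitals mark boxes of either kind. The Acta2 window holds 2 boxes with 1 core base off, which begin 84 and 34 bases before the start, and the Myl9 window an exact box at 161 bases and 1 with a core base off at 99 bases. The kinds do not overlap. A match is a description of the letters in this window, and a missing match says nothing of the factor.
Acta2: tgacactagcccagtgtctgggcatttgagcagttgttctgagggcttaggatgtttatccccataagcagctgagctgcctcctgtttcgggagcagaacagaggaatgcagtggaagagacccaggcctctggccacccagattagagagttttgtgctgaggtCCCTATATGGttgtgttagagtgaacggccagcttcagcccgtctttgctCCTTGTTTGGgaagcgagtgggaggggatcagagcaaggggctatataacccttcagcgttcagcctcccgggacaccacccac
Myl9: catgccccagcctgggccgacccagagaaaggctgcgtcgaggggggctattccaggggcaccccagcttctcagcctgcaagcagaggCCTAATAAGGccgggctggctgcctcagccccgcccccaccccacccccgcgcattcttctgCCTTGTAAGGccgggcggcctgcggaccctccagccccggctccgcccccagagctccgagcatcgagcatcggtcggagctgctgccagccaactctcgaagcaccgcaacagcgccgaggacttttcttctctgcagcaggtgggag

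The genes of largest fold among those higher than both cell types and higher in every library were partly contractile. They were Myh11, H2-M9, Olfr558, Phox2a, Tusc5, Actg2, Des, 1810011H11Rik, Higd1b and Rasl12. Actg2, smooth muscle gamma actin, was at 201, 43.8 and 109 CPM in control, platform 15 min and platform 60 min. Olfr558, an olfactory receptor gene (chr7:102702215-102712064, plus strand, GRCm38), was at 201, 233 and 211 CPM and was at least 232.7-fold higher than in fibroblasts. Levels of this gene were nearly equal over the libraries. H2-M9, a nonclassical class I histocompatibility gene, was at 333, 126 and 291 CPM, with the reservation that reads of this gene family can be shared between close copies. Phox2a, a homeobox transcription factor gene known from autonomic neurons, had 66 UMIs in pericytes, 0 in fibroblasts and 1 in endothelial cells. Of these genes, 1810011H11Rik was also present in leukocytes (44.0 CPM, against 231 in pericytes).

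Lower than both cell types by the largest fold were Gja1, Mgll, Tek, Ly6c1 and Fam171a2. Gja1, a gap junction protein, had 0 UMIs in all 3 pericyte libraries, against 168 CPM in fibroblasts and 388 in endothelial cells, and was at least 49.4-fold and 114-fold lower. Mgll, monoglyceride lipase, also had 0 UMIs and was at least 28.0-fold and 72.7-fold lower. Ly6c1, a surface protein gene of endothelial cells and some fibroblasts, had 1 UMI against 656 and 672 CPM. Tek, the angiopoietin receptor TIE2, had 0 UMIs in pericytes, 35.4 CPM in fibroblasts and 148 CPM in endothelial cells. Gja1 and Tek were thus not detectable at the depth of these pericytes, at which 3 UMIs over all libraries equal 3.39 CPM.

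Genes of vessel tone formed a second group of mostly higher genes. Over all genes, 8.18% were higher than in fibroblasts and 12.6% higher than in endothelial cells. Gucy1a1, Gucy1b1, Kcnj8 and Abcc9 also stand in the pericyte marker list, so they are counted in both places. Of 13 vasoactive receptor and cyclic GMP genes tested, 9 were higher and 2 lower than in fibroblasts (median log2 fold change 2.19), and 10 were higher and 3 lower than in endothelial cells (median 6.65). Ednra, the endothelin A receptor, was at 186, 219 and 204 CPM in control, platform 15 min and platform 60 min, against 53.0 in fibroblasts and 1.01 in endothelial cells. The subunits of soluble guanylate cyclase, which makes cyclic GMP in response to nitric oxide, were at 333 CPM (Gucy1a1) and 305 CPM (Gucy1b1), and the cyclic GMP phosphodiesterase gene Pde5a at 107 CPM. Ednrb, the endothelin B receptor, was higher than in fibroblasts (67.9 against 0.308 CPM) and lower than in endothelial cells (203 CPM). Npr1, a natriuretic peptide receptor gene, was lower than both, with 15.8 CPM against 36.9 and 55.7. All 5 mural ion channel genes that could be tested were higher in both comparisons. Among them, Trpc6, a cation channel gene, was at 170.4, 175 and 169 CPM over the libraries and at 0.924 CPM or less in the other cells. Abcc9, the sulfonylurea receptor that pairs with Kcnj8, was at 571 CPM against 20.6 and 79.5.

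In the family of RGS proteins, which shorten signalling by G protein-coupled receptors and to which the defining gene Rgs5 belongs, 7 further members could be tested. Rgs4 (425 CPM against 12.9 in fibroblasts and 1.35 in endothelial cells) and Rgs16 (743 CPM against 25.9 and 217) were higher than both. Against fibroblasts Rgs2 and Rgs10 were lower, and against endothelial cells Rgs2 and Rgs3. The family thus held genes called in both directions.

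Of 14 basement membrane genes tested, 4 were higher and 4 lower than in fibroblasts, and 1 was higher and 5 lower than in endothelial cells. The type IV collagen gene Col4a1 was at 3625, 4596 and 2977 CPM in control, platform 15 min and platform 60 min, with 748 CPM in fibroblasts and 3782 in endothelial cells. Its log2 fold change was 1.92 ± 0.15 against fibroblasts and -0.18 ± 0.14 against endothelial cells, the second with an adjusted p of 0.37. Col4a2, Col18a1 and Col15a1 behaved likewise. Lamb1, a laminin chain (144 CPM against 298 and 374), and Hspg2, perlecan (93.9 against 309 and 591), were lower than both. Lamb2, the laminin beta 2 chain, was the gene higher than in endothelial cells, at 174 against 50.1 CPM.

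Fibrillar and other interstitial matrix genes lay between the other cell types. Of 16 tested, 0 were higher and 13 lower than in fibroblasts (median log2 fold change -2.37), while 15 were higher and 0 lower than in endothelial cells (median 6.92). Col1a1, of type I collagen, was at 922, 2670 and 1295 CPM, against 9631 in fibroblasts and 13.2 in endothelial cells. A UMI of it was found in 91.1% of pericytes, against 8.12% of endothelial cells and 7.85% of leukocytes, at median depths of 6667.5, 8207 and 11094 UMIs. Col6a3, a type VI collagen gene, was at 799 CPM and was not called against fibroblasts (1063 CPM, adjusted p = 0.075). Lox, which crosslinks collagen, was at 10.2 against 416.5 CPM in fibroblasts, and Eln, elastin, at 47.5 against 888. All 13 fibroblast markers tested were lower than in fibroblasts and 8 higher than in endothelial cells.

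Proteases that remodel matrix were mostly lower than in fibroblasts. Of 11 protease and inhibitor genes tested, 1 was higher and 6 lower than in fibroblasts, and 3 were higher and 1 lower than in endothelial cells. Mmp3, stromelysin 1, had 2 UMIs in pericytes against 1443 CPM in fibroblasts, and Mmp2, gelatinase A, was at 21.5 against 1340 CPM. Timp3, an inhibitor bound to matrix, was at 658, 681 and 532 CPM over the libraries and was not called in either comparison. Adamts9 was the gene higher than in fibroblasts, at 43.0 against 14.8 CPM.

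**Figure D3:**
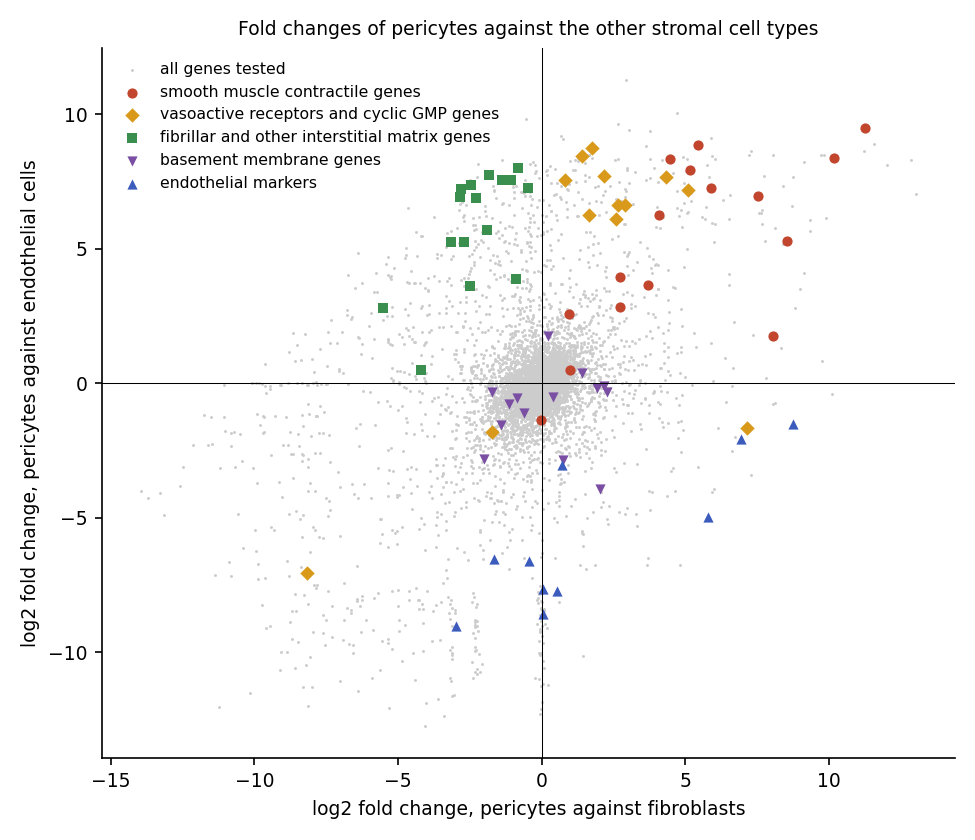
log2 fold changes of all genes tested, pericytes against fibroblasts (x axis) and against endothelial cells (y axis), 1 point per gene, with 5 gene lists marked. Contractile and vasoactive genes lie mostly at the upper right, interstitial matrix genes at the upper left (0 of 16 higher than fibroblasts, 15 higher than endothelial cells), basement membrane genes near the centre and endothelial markers below 0 on the y axis; fitted values of genes at 0 in a cell type depend on the prior count.

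The ligands and receptors between pericytes and endothelium were set out by role. The ligand gene Pdgfb was at 6.79 CPM in pericytes and 104 in endothelial cells, whereas its receptor was read by the rule. Pdgfa, a ligand of the other PDGF receptor, was at 744, 584 and 566 CPM in pericytes, against 30.8 in fibroblasts and 59.6 in endothelial cells, and was called higher than both (log2 fold changes 4.66 ± 0.40 and 3.55 ± 0.33). Over the 3 PDGF genes tested, 2 were higher and 1 lower than in fibroblasts, and 1 was higher and 2 lower than in endothelial cells. Pdgfd was the gene lower than both, with 4 UMIs.

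Of 15 angiopoietin and VEGF pathway genes, 4 were higher and 6 lower than in fibroblasts, and 2 were higher and 7 lower than in endothelial cells. Those higher than in fibroblasts were Angpt2, the angiopoietin that antagonizes TIE2 (80.3 against 18.8 CPM), Pgf, placental growth factor, Nrp2 and Flt1. Against endothelial cells Nrp2 was lower (log2 fold change -1.74 ± 0.29) and Angpt2 was not called. The genes higher than in endothelial cells were Pgf and Angpt1, the latter from 9 UMIs in pericytes. Pgf was at 217, 73.0 and 106 CPM in control, platform 15 min and platform 60 min, and it was also higher than in endothelial cells (114 against 14.1 CPM). Flt1, VEGF receptor 1, was at 155, 199 and 295 CPM, against 1.54 CPM in fibroblasts and 823 in endothelial cells. A Flt1 UMI was found in 62.1% of pericytes, against 0.839% of leukocytes and 1.97% of epithelial cells, at median depths of 6667.5, 11094 and 9583.5 UMIs. The main VEGF receptor gene Kdr had 1 UMI in pericytes and 593 CPM in endothelial cells, and Pecam1 was 0 by the rule. Esam, an adhesion gene of the endothelial list, was likewise higher than in fibroblasts and lower than in endothelial cells (355 against 0.616 and 858 CPM). Over the list of 10 endothelial markers, 3 were higher and 1 lower than in fibroblasts, and all 10 were lower than in endothelial cells.

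Of 14 genes of the Notch pathway, through which touching cells signal, 6 were higher and 2 lower than in fibroblasts, and 4 were higher and 6 lower than in endothelial cells. Notch3 was at 506 CPM against 7.39 and 1.35, and its ligand gene Jag1 at 103 against 41.9 and 38.5. The targets Heyl (131 CPM) and Hey2 (38.5 CPM) were higher than both. Dll4 and Jag2, Notch ligand genes at 188 and 67.8 CPM in endothelial cells, had 0 UMIs in pericytes. Notch1 and Notch4 were lower than in endothelial cells.

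In the TGF-beta and BMP pathway, 0 of 20 genes were higher and 6 lower than in fibroblasts, and 5 were higher and 12 lower than in endothelial cells. The type II receptor gene Tgfbr2 was at 49.8 CPM against 666 in fibroblasts and 105 in endothelial cells, lower than both. Id1, a target of BMP signalling, was at 50.9 CPM against 53.9 and 1120.1. The ligand genes Tgfb2 (61.1 against 10.1 CPM) and Tgfb3 (69.0 against 2.13) were higher than in endothelial cells, and neither was called against fibroblasts.

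Chemokine, cytokine and adhesion genes were fewer than in fibroblasts. Of 15 tested, 1 was higher and 9 lower than in fibroblasts, and 5 were higher and 5 lower than in endothelial cells. Cxcl12, a chemokine of stromal cells, was at 31.0, 48.6 and 36.4 CPM, against 317 in fibroblasts and 378 in endothelial cells. Il33 had 4 UMIs against 326 CPM in fibroblasts, and the adhesion genes Icam1 and Vcam1 were lower than both. Ccl11, eotaxin, was at 293 CPM, not called against fibroblasts (453 CPM) and higher than in endothelial cells (1.57 CPM). Cxcl2, a neutrophil chemokine, was higher than in both, and single cells held much of it, as given below.

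Pericytes varied widely among themselves in contractile genes. Per 10000 UMIs of a cell, Acta2 ran from 0 in the lowest cells through a median of 17.8 to 226 in the highest cell. Higd1b ran from 0 through 14.6 to 42.0. An Acta2 UMI was found in 77.8% of pericytes in the control, 80.6% in platform 15 min and 92.0% in platform 60 min. Over all libraries it was found in 25% of fibroblasts and 1.46% of leukocytes. After each cell was thinned to 1000 UMIs, the pericyte shares were 50%, 45.2% and 74.7%, and the fibroblast share was 8.73%. Myh11 was found in 66.7%, 51.6% and 54.7% of pericytes, against 0.0365% of leukocytes and 0 of 276 fibroblasts, where 3 cells would be a share of 1.09% with a UMI. Thinned, its shares were 33.3%, 16.1% and 9.33%. The order of the libraries thus differs between the genes.

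Cells with and without a Myh11 UMI were set side by side as a description, since a division on 1 gene gives a range and not a type. The 69 cells with Myh11 had a median of 7396 UMIs and the 55 without 5176, so that depth differs between them. With Myh11, Tagln was at 2424 against 668 CPM, Acta2 at 4706 against 1646, and Actg2 at 163 against 17.7. Tgfb2 (91.7 against 11.8 CPM) and Eln (69.7 against 11.8) were also higher. Without Myh11, Kcnj8 was higher (1040.0 against 649 CPM), as were Egr1, an immediate early gene (975 against 557), and the neutrophil chemokine gene Cxcl1 (659 against 292). Of the genes read by the rule, Pdgfrb was at 1164 CPM without Myh11 and 865 with it, and Rgs5 at 6925 without and 8949 with it. Pericyte markers thus went both ways. Abcc9 was higher without Myh11 (665 against 513 CPM), and Des was higher with it (728 against 440). Higd1b was at 1667 CPM with Myh11 and 1557 without (ratio 1.07, 0.960 to 1.19).

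**Figure D4:**
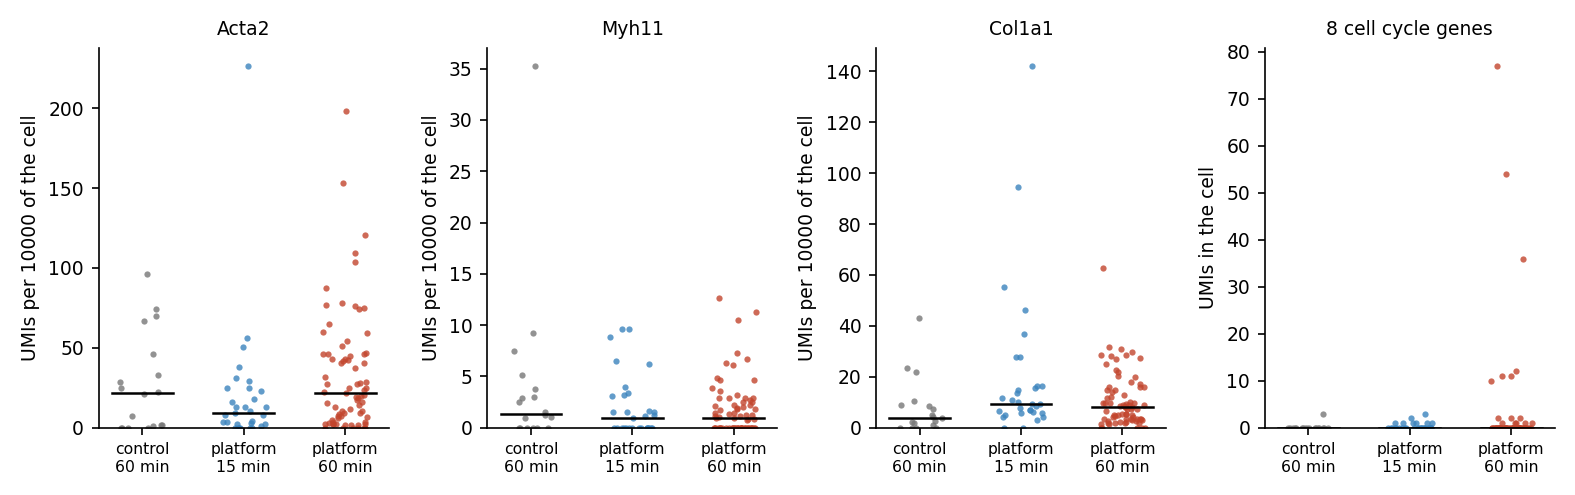
Acta2, Myh11 and Col1a1 as UMIs per 10000 of the cell, and UMIs of 8 cell cycle genes, with 1 point per pericyte and the median of each library as a line. Acta2 spans from 0 to 226 within the pericytes, and high cell cycle values are seen in 7 cells of platform 60 min.

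Pericytes with several cell cycle genes were seen in platform 60 min. With at least 3 of 8 cell cycle genes detected as the criterion, 0 of 18 pericytes in the control, 0 of 31 in platform 15 min and 7 of 75 in platform 60 min (9.33%, 3.84 to 18.3%) met it. The upper limits that the zeros allow, 16.7% and 9.68% by 3 cells, reach the value of platform 60 min, so a difference between the libraries was not detectable at these cell numbers. Of the 222 cycle UMIs of platform 60 min, 211 lay in those 7 cells. In endothelial cells 4.50%, 6.91% and 7.17% met the criterion, and in fibroblasts 1 cell did. Over the cell cycle list, 10 of 13 genes were higher than in fibroblasts and 0 of 13 were called against endothelial cells (median log2 fold change -0.42). Without platform 60 min, 1 of 9 genes was higher than in fibroblasts and 7 of 9 lower than in endothelial cells, so the comparison with fibroblasts rests on that library. In it, 1 cell held 16.5% of the list's UMIs, and in the control 1 cell held 39.4%.

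Between conditions, platform 60 min was first set against the control of the same digestion time. Among 1965 genes with at least 50 UMIs in the pair, 3.51% were at least 2-fold higher and 0.662% at least 2-fold lower in platform 60 min, with a median ratio of 1.06, and 6.67% had intervals above 1 and 5.04% below. Contractile genes did not move as 1 group: of 14 genes 0 were past 2-fold, 2 had intervals above 1 and 3 below. Acta2 was 1.37 times the control (1.23 to 1.53), while Tpm1, tropomyosin 1, was at 823 against 1588 CPM (0.518, 0.439 to 0.614) and Myh11 at 0.528 (0.374 to 0.755). Without the top cell of each library, which in the control held 44.9% of its UMIs, Myh11 was at 179 against 219.7 CPM. Of 17 pericyte markers, Cox4i2, a cytochrome oxidase subunit gene (898 against 434 CPM, ratio 2.07), and Foxs1, a forkhead factor gene (215 against 92.9, ratio 2.31), were past 2-fold. Kcnj8 was 1.63 times the control (1.26 to 2.14). In basement membrane genes the median ratio was 0.905 and in interstitial matrix genes 1.06, with 0 genes past 2-fold in either list. Of the 4 cell cycle genes with enough UMIs 3 were past 2-fold higher. Among them was Hmgb2, a chromatin protein gene, with a ratio of 3.68, of whose control UMIs 75% lay in 1 cell. As given above, 0 of 18 control pericytes and 7 of 75 of platform 60 min met the cell cycle criterion.

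The genes of largest ratio with an interval that leaves out 1 were Ccl7, Tubb6, Cks2, 1700025G04Rik and Phox2a on the higher side. Ccl7, a monocyte chemokine, had 63 UMIs in platform 60 min and 0 in the control, at least 4.94-fold higher, but 73.0% of these UMIs lay in 1 cell. Tubb6, a beta tubulin gene, was at 107 against 15.5 CPM, from 59 UMIs against 2 (ratio 6.94, 1.84 to 58.6), and 31 of 75 cells carried it. Phox2a was at 94.7 against 23.2 CPM (4.08, 1.32 to 20.4). On the lower side were Gm26917, Klf2, Lars2, Tppp3 and Myo1c. Klf2, a flow-responsive transcription factor gene, was at 237 against 720.3 CPM (0.329), and 76.3% of its control UMIs lay in 1 cell. Without the top cell of each library it was at 216 against 189.9 CPM, so that the difference rests on that cell. Lars2, a mitochondrial leucyl-tRNA synthetase gene, was at 160 against 457 CPM (0.351, 0.249 to 0.496). Its ratio was 0.562 in fibroblasts and 0.304 in endothelial cells, below 1 in all 3 cell types.

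The 2 platform libraries differed in more directions. Among 2244 genes with at least 50 UMIs in the pair, 2.14% were at least 2-fold higher and 2.45% at least 2-fold lower in platform 15 min than in platform 60 min (median ratio 1.01), and 8.82% had intervals above 1 and 9.63% below. Interstitial matrix genes were higher at 15 min: of 13 genes 9 had intervals above 1 and 1 below, with a median ratio of 1.54. Col1a1 was at 2670 against 1295 CPM (2.06, 1.84 to 2.31) and Col1a2 at 2140 against 925 CPM (2.31, 2.03 to 2.63). Without the top cell of each library, Col1a1 was at 2228 against 1182 CPM. A few cells carried much of this. The 4 pericytes with the most Col1a1 UMIs held 346 of 549 UMIs in platform 15 min and 183 of 711 in platform 60 min, and without these 4 of each library Col1a1 was at 1273 against 1055 CPM, a ratio of 1.21, and Col1a2 at a ratio of 1.40, an alternative chosen after the data were seen. In fibroblasts the full ratios were 0.651 and 0.854. The 13 fibroblast markers, which include these collagens, summed to 9017 against 5579 CPM. Outside the collagens, Mfap5, a microfibril protein gene, was at 77.8 against 12.7 CPM and Serpinf1 at 97.3 against 38.2, while Gsn, gelsolin, was at 768 against 992, and Dpep1, Pi16 and Cd34 were at 0 in both. The part of fibroblast RNA in these ratios was not tested. Of 12 basement membrane genes 6 had intervals above 1 and 0 below (median 1.26), and Col4a1 was 1.54 times platform 60 min (1.42 to 1.67), against 1.45 in fibroblasts and 1.41 in endothelial cells.

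Contractile genes were lower at 15 min. Of 15 genes, 9 had intervals below 1 and 0 above, with a median ratio of 0.788, and 1 gene, Actg2, was past 2-fold (0.401). Acta2 was at 2612 against 4021 CPM (0.650, 0.590 to 0.714). In platform 15 min, 1 cell held 39.3% of the Acta2 UMIs and 23.1% of the UMIs of the list. Without the top cell of each library Acta2 was at 1661 against 3683 CPM, and the summed list fell from a ratio of 0.778 to 0.668. The vasoactive gene Gucy1a1 went the other way, at 554 against 275 CPM (2.02, 1.57 to 2.59), while its partner subunit Gucy1b1 was at 224 against 326 CPM.

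**Figure D5:**
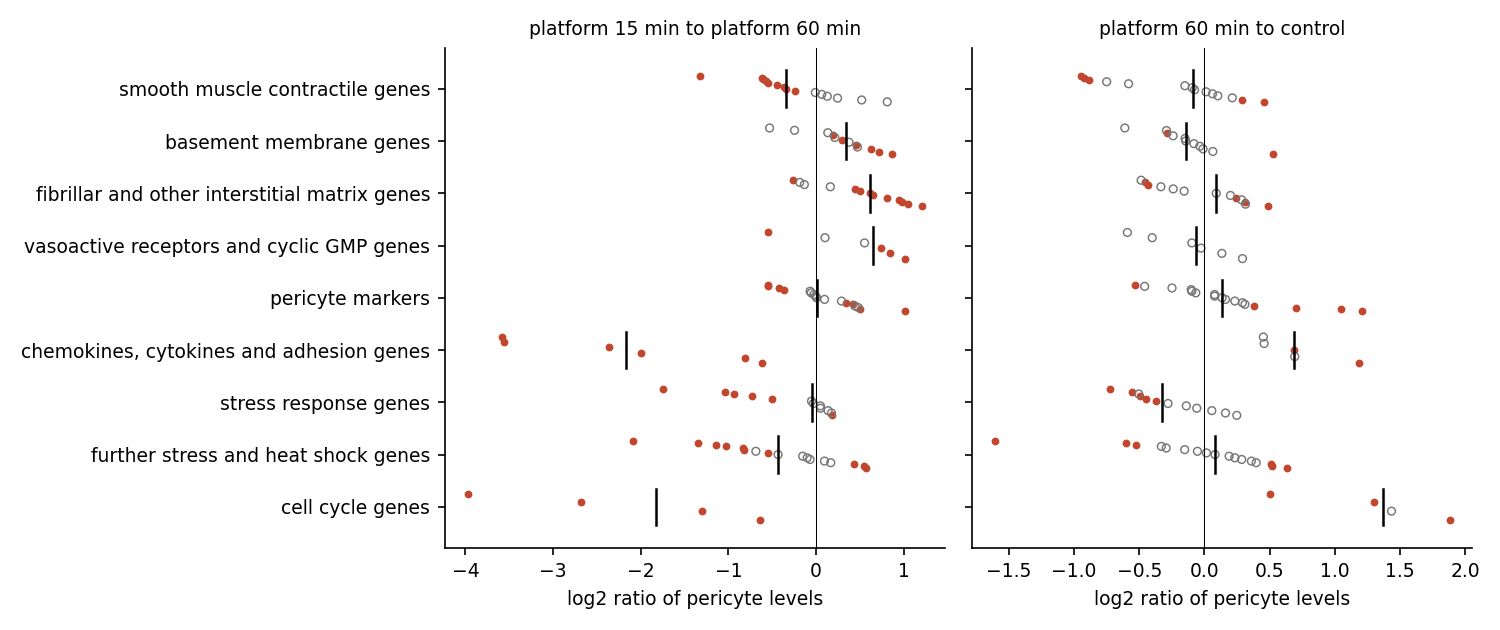
log2 ratios of pericyte levels by gene list, platform 15 min to platform 60 min (left) and platform 60 min to control (right), with 1 point per gene of at least 50 UMIs, filled where the 95% counting interval leaves out 1, and a bar at the median of the list. On the left the contractile, chemokine and cell cycle medians lie below 0 and those of both matrix lists above 0; Ccl7, with 0 UMIs in the control, has no point on the right.

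Chemokine and cytokine genes with enough UMIs were lower at 15 min in pericytes: all 6 had intervals below 1, 4 of them past 2-fold (median 0.223). Ccl11 was at 0.571 times platform 60 min in pericytes (0.395 to 0.807) and at 0.985 times in fibroblasts (0.836 to 1.16). Cxcl1 was at 146 against 581 CPM (0.251, 0.167 to 0.366), with ratios of 0.117 in fibroblasts and 0.0852 in endothelial cells. In platform 60 min 1 cell held 31.7% of the Cxcl1 UMIs, and 37 other cells carried the gene. Of the Ccl2 UMIs there, 40% lay in 1 cell. Cxcl2 was at 9.73 against 117 CPM, but 75% of its UMIs in platform 60 min lay in 1 cell, another cell than that of Ccl7. Cell cycle genes were also lower, led by Stmn1, stathmin (14.6 against 229 CPM, 0.0636), and Cks2, a kinase subunit of the cell cycle (14.6 against 133, 0.110). In platform 60 min 24 of 75 cells carried Stmn1 and 20 carried Cks2. By the cell cycle criterion above, 0 of 31 and 7 of 75 cells were met with, a difference not detectable at these cell numbers. Isg15, an interferon-induced gene, was at 34.0 against 248 CPM (0.137, 0.0542 to 0.291), found in 29 of the 75 cells of platform 60 min. With the cells of the Leiden cluster this ratio was 0.532.

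Of the genes highest at 15 min, several were also higher at 15 min in the other cell types. Wfdc18, a milk protein gene of luminal cells, was at 151 against 47.3 CPM (3.18, 1.83 to 5.58, and 40.0 with the cells of the Leiden cluster), with ratios of 2.97 in fibroblasts and 2.28 in endothelial cells. Lcn2, lipocalin 2, had a ratio of 2.67, against 2.78 and 1.84. Luminal markers summed to 441, 564 and 195 CPM in pericytes of control, platform 15 min and platform 60 min, and their part in these ratios was not tested. Chchd10, a mitochondrial protein gene, was at 229 against 20.03 CPM (11.4), but 1 cell held 70.2% of its UMIs. Mia3, of protein export (3.14, 1.73 to 5.72), and Timm10b, of mitochondrial import (3.00, 1.81 to 5.00), completed the set.

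The stress response was measured over 12 genes in pericytes. The study showed these genes singly, while its comparison between conditions used a score over a larger published set. It reported that tumor scores were alike over cell types and conditions. The sum given here is not that score. The 12 genes summed to 16923 CPM in the control, 13093 in platform 15 min and 14136 in platform 60 min. The ratio to the control was 0.774 (0.731 to 0.819) for platform 15 min and 0.835 (0.796 to 0.876) for platform 60 min. Per cell and at 1000 UMIs, the mean log value was 1.60 (SD 0.718, 18 cells), 1.39 (SD 0.639, 31 cells) and 1.58 (SD 0.715, 75 cells), where the SD is between cells. With the cells of the Leiden cluster in place of the rule, the ratio of platform 60 min to control was 1.01. The genes did not share 1 pattern. From platform 60 min to platform 15 min, Atf3, an immediate early factor gene, was at 0.298 (0.183 to 0.464) and Gadd45b, a growth arrest gene, at 0.486 (0.349 to 0.663), while Junb was at 1.13 (1.01 to 1.27). From control to platform 60 min, Fosb (0.607), Jun (0.731) and Fos (0.772), subunits of the AP-1 factor, had intervals below 1.

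In endothelial cells the sum of platform 60 min was 1.47 times the control, and that of platform 15 min 0.870 times. In fibroblasts the ratios were 0.935 and 0.535. Among 17 further stress and heat shock genes with enough UMIs, 4 were past 2-fold lower in platform 15 min than in platform 60 min, among them Hspa1a, an inducible heat shock protein gene, with 511 against 1302 CPM (0.392, 0.316 to 0.482). The near-identical Hspa1b shares reads with it. Hspa1a ratios were 0.0815 in fibroblasts and 0.0619 in endothelial cells. Between cell types, 0 of 12 stress genes were higher and 2 lower in pericytes than in fibroblasts (Atf3 and Egr1). Against endothelial cells 1 was higher and 1 lower (Gadd45b and Atf3). Over all genes, 8.18% were higher and 13.4% lower than in fibroblasts, and 12.6% higher and 13.7% lower than in endothelial cells. The calls among these 12 genes lie near those shares. Of the 20 further genes, 1 was higher and 9 lower than in fibroblasts, and 4 higher and 4 lower than in endothelial cells. Klf4, a transcription factor gene, was lower than both, at 48.6 CPM against 837 and 477.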

How the data were processed

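Droplet libraries of MMTV-PyMT mammary tumors, 1 per condition, were analysed from the UMI count matrix the authors deposited, an aggregate of the 3 tumor libraries on mm10 made with Cell Ranger (version 3.1.0 in the submitters' processing notes), in which aggregation evens out depth. Kidney libraries were not used here. The matrix lists 31053 genes, and the library of a cell was read from its barcode suffix. Gene and mitochondrial limits were applied as the report states. Fibroblasts had at least 3 UMIs of Dcn and 1 of Pdgfra, endothelial cells 3 of Pecam1 and 1 of Cdh5, leukocytes 3 of Ptprc and epithelial cells 3 of Epcam. No doublet caller was run.

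UMIs were summed per library and cell type and tested with edgeR 4.0.16 (TMM, filterByExpr, quasi-likelihood, library as a term) in R 4.3.3, with DESeq2 1.42.0 as an alternative. Ratios between libraries have exact 95% intervals for counting error and were given for genes of at least 50 UMIs. Clustering used scanpy 1.11.5 and leidenalg 0.10.2 with 2000 variable genes, 20 components and a resolution of 0.5. On simulated data of 7502 genes, 4-fold changes against fibroblasts were recovered for 38 of 50 raised and 20 of 47 lowered genes, and against endothelial cells for 43 of 50 and 22 of 47. Changes of 2-fold, the calling limit, were recovered for 2 of 50 and 3 of 47 against fibroblasts. Against endothelial cells they were recovered for 3 of 50 and 1 of 47. A gene that was not called may thus still differ by 2-fold.

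Named genes were members of the 24 lists with at least 10 UMIs in pericytes, the 10 genes of largest fold higher and the 5 lower than both cell types, and the 5 of largest ratio in each direction between libraries. List members with fewer UMIs that the text names, such as Cnn1, Pln, Cldn5, Lum, Mmp3, Il33, Pdgfb, Pdgfd and Kdr, were chosen after their values were seen. The members and the lists were chosen with earlier results of these data known. Other limits of the rule, the cluster as members, thinning, other fits and leaving out libraries were tried as alternatives.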

Additional observations from a re-analysis of the deposited data

Results flagged for a closer look

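In several results pericytes and another cell type of the same libraries moved in opposite directions, each with a counting interval on its own side of 1. The differences between cell types were not tested, since each condition is 1 library. The 12 stress response genes of platform 60 min stood at 0.835 times the control in pericytes and at 1.47 times in endothelial cells. With the cells of the Leiden cluster the pericyte ratio was 1.01, and the thinned means per cell were 1.58 and 1.60, so that its direction rests on how the cells were chosen and weighted. Cks2, a cell cycle gene, was 4.29 times the control in pericytes of platform 60 min, from 73 UMIs against 4, and 0.821 times in endothelial cells. These UMIs lay in 20 pericytes of platform 60 min and 4 of the control. A difference in the share of cells meeting the cell cycle criterion was not detectable.

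Single cells carried part of the others. Ccl7 was at least 4.94-fold higher in pericytes of platform 60 min than in the control and at 0.584 times in fibroblasts, with 73.0% of the pericyte UMIs in 1 cell. Klf2 was at 0.329 times the control in pericytes, 1.33 times in fibroblasts and 1.46 times in endothelial cells, with 76.3% of the control UMIs in 1 pericyte. From platform 60 min to platform 15 min, Chchd10 was at 11.4 times in pericytes and 0.567 times in fibroblasts, with 70.2% of the UMIs of platform 15 min in 1 cell. Isg15 was at 0.137 times in pericytes and 1.48 times in fibroblasts, with 22.1% of the UMIs of platform 60 min in 1 cell, and at 0.532 times with the cells of the Leiden cluster.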

How the results depend on the processing

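Each condition is 1 library and pericytes number 18 to 75 per library, so that intervals cover counting error only and low genes could not be compared. No paired analysis between conditions was possible because each condition is 1 library and the labels give no replicate numbers. The study states that the conditions of a replicate used tissue of the same mouse. The comparisons between cell types were paired within library through the library term. Of 433 recomputed values, 408 were counted as the same. For a single gene's fold between cell types this meant the same direction and call, whatever its size. Among values of the main results 78 were the same, 15 moved and 1 reversed. Among those of single genes and lists 330 were the same and 9 moved. The alternative that left out pericytes meeting the fibroblast limits removed 0 cells, so its values could not differ. Leaving out each library in turn gave 428 to 734 genes higher and 722 to 1124 lower than in fibroblasts, the lowest of both without platform 60 min, where 6200 genes were tested, and 763 to 1065 higher and 797 to 1224 lower than in endothelial cells. Genes at least 2-fold lower in platform 60 min than in the control numbered 27 by the mean over cells and 8 in the Leiden cluster, against 13. The stress ratio of platform 60 min to control was 0.911 by the mean over cells and turned to 1.01 in the Leiden cluster, and that of platform 15 min was 0.856 and 0.920. Thinned to 1000 UMIs, the share of cells with Acta2 was 50%, 45.2% and 74.7% in control, platform 15 min and platform 60 min (63.7% over all), and with Myh11 33.3%, 16.1% and 9.33% (14.5%). In the Leiden cluster the Wfdc18 ratio of platform 15 min to platform 60 min was 40.0 and that of Isg15 0.532. Leaving out the top cell of each list, an alternative chosen after seeing the data, moved the cell cycle ratio of platform 60 min to control to 2.96 and the contractile ratio of platform 15 min to platform 60 min to 0.668, and leaving out 4 cells per library moved those of Col1a1 and Col1a2 to 1.21 and 1.40. Apart from thinning and leaving out cells or libraries, the cause of these changes was not tested.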

Other observations

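Hypoxia genes, which respond to low oxygen, were measured as a further group. Of 9 tested, 1 was higher and 3 lower in pericytes than in fibroblasts, and 0 were higher and 2 lower than in endothelial cells. Over all genes, 8.18% were higher and 13.4% lower than in fibroblasts, and 12.6% higher and 13.7% lower than in endothelial cells. Ankrd37 was the higher gene, at 27.2 CPM against 1.85 in fibroblasts. Adm, the vasodilator peptide adrenomedullin, was at 18.1 against 554 CPM in fibroblasts, and Ndrg1 was lower than both, at 18.1 against 45.3 and 144 CPM. The glycolysis genes Pgk1, Ldha and Aldoa were not called in either comparison. Between libraries, Pgk1 was 2.70 times the control in platform 60 min. It was the 1 gene past 2-fold among 3 hypoxia genes with enough UMIs, whose median ratio was 1.17.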
